A study of Mus musculus with 12 samples.

Results

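The mouse genes Rpl3 and Rpl3l, Rpl22 and Rpl22l1, Rps27 and Rps27l, and Eef1a1 and Eef1a2 form 4 pairs in which a widely expressed component of the translation machinery has a paralog, a related gene encoding a similar protein. These 8 paralogs were followed in ventricular wall RNA from 6 WT and 6 KO mice, by matching the gene name in a table of 43686 gene rows. That match found 5 of the 8 (Rpl3l, Rpl22, Rpl22l1, Rps27l and Eef1a2). The rows of Rpl3, Rps27 and Eef1a1 carry no such name and were identified, after the table had been seen, by the KEGG gene entry printed in the same row together with the neighbouring genes, so that all 8 could be described. WT mice were littermates carrying floxed Sdhaf4 alleles (Sdhaf4 fl/fl) and no Cre. KO mice carried the same floxed alleles and Ckmm-Cre, which is driven by the muscle creatine kinase promoter and is active in striated muscle, so that other cell types of the ventricle keep the gene, whereas the sample labels describe the KO animals simply as Sdhaf4-/-. No group carried the Cre without the floxed alleles, so the presence of Cre and the loss of Sdhaf4 cannot be told apart. Sdhaf4 encodes an assembly factor of succinate dehydrogenase, the respiratory chain enzyme that is also part of the tricarboxylic acid cycle. By the labels all animals were C57BL/6 and 2 months old, while the study's text names the C57BL/6J substrain and gives other ages. Each library was treated as 1 replicate.

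RPL3 is a protein of the large ribosomal subunit that lies close to the peptidyl transferase centre, and RPL3L takes its place in ribosomes of heart and skeletal muscle, to which Rpl3l expression is largely restricted. RPL22 and RPL22L1 are alternative proteins of the large subunit, and RPS27 and RPS27L are alternative proteins of the small subunit. RPS27L is known also as a p53 target. EEF1A1 and EEF1A2 are isoforms of eEF1A, the factor that delivers aminoacyl-tRNA to the ribosome. In muscle and neurons Eef1a1 gives way to Eef1a2 after birth, as Rpl3l comes up in maturing striated muscle.

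Whether reads of a gene could be counted on its paralog depends on how much sequence the genes share, so the coding sequences of each pair were aligned from the GENCODE M21 annotation of the GRCm38 assembly. Identity was 74.1% for Rpl3l and Rpl3, 70.2% for Rpl22l1 and Rpl22, 76.1% for Rps27l and Rps27, and 80.1% for Eef1a2 and Eef1a1. The longest uninterrupted stretch that was identical between paralogs was 22 bases in the Rpl3 pair, 26 in the Rpl22 pair, 11 in the Rps27 pair and 23 in the Eef1a pair. The 90-base windows centred on these stretches follow. They were chosen for that uninterrupted stretch and are not necessarily the most similar 90 bases of each pair. All are coding sequence, written 5′ to 3′ on the coding strand, and capitals mark the bases that differ between the paralogs.
Rpl3l: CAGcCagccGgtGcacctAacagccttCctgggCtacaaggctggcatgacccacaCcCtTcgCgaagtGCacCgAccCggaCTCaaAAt
Rpl3: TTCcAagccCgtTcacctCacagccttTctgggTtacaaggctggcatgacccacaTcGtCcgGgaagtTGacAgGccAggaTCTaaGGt
Rpl22l1: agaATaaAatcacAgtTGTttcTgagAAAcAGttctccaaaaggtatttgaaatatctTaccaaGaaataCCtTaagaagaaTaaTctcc
Rpl22: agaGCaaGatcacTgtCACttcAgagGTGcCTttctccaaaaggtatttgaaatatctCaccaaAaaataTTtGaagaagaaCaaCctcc
Rps27l: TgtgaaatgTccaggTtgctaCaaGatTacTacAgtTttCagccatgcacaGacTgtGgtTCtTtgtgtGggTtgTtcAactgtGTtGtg
Rps27: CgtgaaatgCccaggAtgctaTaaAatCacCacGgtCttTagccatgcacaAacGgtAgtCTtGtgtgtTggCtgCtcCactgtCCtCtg
Eef1a2: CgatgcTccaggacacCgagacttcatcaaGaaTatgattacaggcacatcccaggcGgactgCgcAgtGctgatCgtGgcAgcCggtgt
Eef1a1: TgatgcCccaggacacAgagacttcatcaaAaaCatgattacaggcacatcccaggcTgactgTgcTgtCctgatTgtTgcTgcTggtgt
The Rpl3 pair differed at 23 of the 90 positions of its window, the Rpl22 pair at 20, the Rps27 pair at 23 and the Eef1a pair at 13. In GRCm38 the Rpl3l window spans exons 2 and 3 of 10 (chr17:24728424-24730872, plus strand), and the Rpl3 window spans the same exons of 10 (chr15:80081780-80082475, minus strand). The Rpl22l1 window spans exons 3 and 4 of 4 (chr3:28806816-28807233, plus strand) and the Rpl22 window exons 3 and 4 of 4 (chr4:152330086-152332326, plus strand). The Rps27l window spans exons 2 and 3 of 4 (chr9:66946926-66947662, plus strand) and the Rps27 window exons 2 and 3 of 4 (chr3:90212969-90213206, minus strand). The Eef1a2 window spans exons 3 and 4 of 8 (chr2:181153046-181153705, minus strand) and the Eef1a1 window exons 3 and 4 of 8 (chr9:78480114-78480295, minus strand).

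The deposited table uses C57BL/6NJ gene identifiers, and the positions that follow are on that assembly. Rpl3l lies on chromosome 17 from 24793753 to 24803033, Rpl22 on chromosome 4 from 162051097 to 162059426, Rps27l on chromosome 9 from 68650486 to 68656932 and Eef1a2 on chromosome 2 from 193142754 to 193152115, none of them overlapping another row. Rpl22l1 lies on chromosome 3 from 27593791 to 27595779 and shares 220 bases with an unnamed row that held 935 counts over the 12 libraries, against 14133 for Rpl22l1. The row taken as Rpl3 lies on chromosome 15 from 83545222 to 83567643, between Pdgfb and Syngr1 as in RefSeq. It shares 535 bases with Syngr1 on the opposite strand, which held 22233 counts against 57368 for Rpl3, and the strand setting of the counting was not stated. The row taken as Rps27 lies on chromosome 3 from 93894085 to 93895211, beside Nup210l as in RefSeq, and the table calls it Rps27rt, a name that RefSeq gives to a gene on chromosome 9. The row taken as Eef1a1 lies on chromosome 9 from 81125907 to 81127357, between Mto1 and Slc17a5 as in RefSeq. That row shares 333 bases with an unnamed row that held 112529 counts against its own 77907, so its level may cover only part of the gene's reads.

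Between 23747014 and 27159228 reads had been counted per WT library and between 26542930 and 31393393 per KO library. Sdhaf4 itself stood at 14.3 to 30.3 counts per 1000000 counts of the library (CPM) in WT and 2.25 to 2.73 CPM in KO, in the direction of the labels (log2 fold change -3.39, edgeR adjusted p = 1.95e-10). For CPM the library totals were scaled by the TMM method of edgeR, except where another scaling is stated. Cardiomyocyte markers far exceeded those of the other cell types examined, 9 of them summing to 55428 to 61322 CPM in WT and 42828 to 56942.5 CPM in KO (scaled by total counts, as are all marker sums), and 8 skeletal muscle markers summed to 14.4 CPM or less. In KO, 5 of the 9 cardiomyocyte markers tested fell and 1 rose, and 7 of 8 fibroblast markers rose and 1 fell. Of the others, 5 of 8 endothelial markers rose and 1 fell, 2 of 6 smooth muscle and pericyte markers rose and 2 fell, 1 of 7 leukocyte markers rose and 2 fell, 2 of 3 skeletal muscle markers tested fell, and of the neuron markers Stmn2 fell while Snap25 and Syt1 had no counts. These calls used an edgeR adjusted p under 0.05, by which 25.6% of all rows tested rose and 25.5% fell. In bulk tissue, fewer cells of a type and less RNA per cell cannot be told apart.

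Of the 17155 rows with enough counts to test, the quasi-likelihood test of edgeR called 51.1% different between KO and WT, taking an adjusted p of 0.05 as the limit. All 8 paralogs passed the filter, and 7 of 8 differed, with 2 higher and 5 lower in KO, against 25.6% of all rows higher and 25.5% lower. The study's methods also set a stricter limit, which asks for a change of more than 1 on the log2 scale and an adjusted p below 0.005. It was passed by 10.2% of all rows (5.36% higher and 4.87% lower), and by 2 of the 8, Rpl3 (higher) and Rpl3l (lower). The KO and WT hearts did not overlap in CPM for 3 of the 8 (Rpl3l, Rpl3 and Eef1a1), against 30.1% of all rows.

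**Figure D1:**
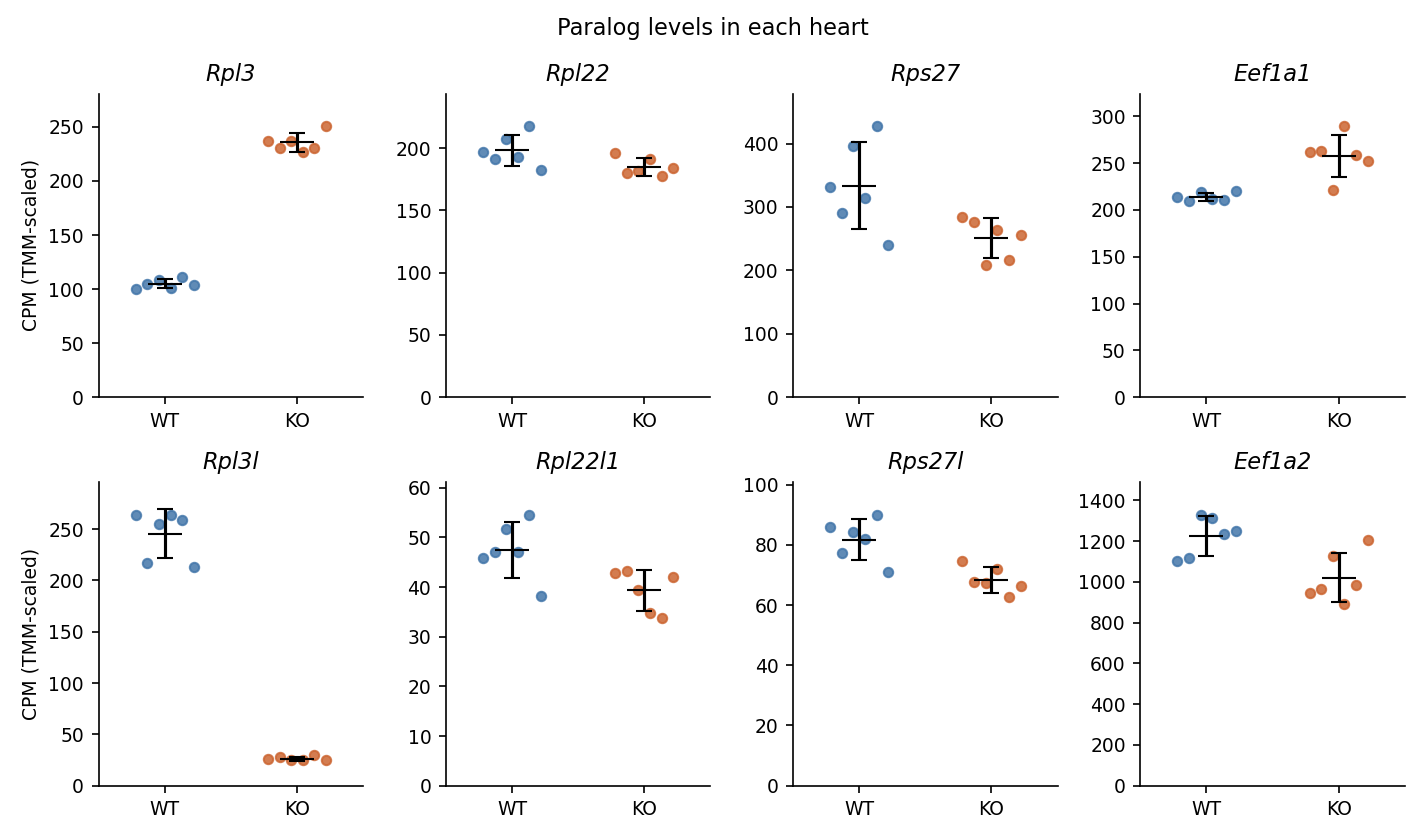
CPM of each paralog (TMM-scaled, vertical axes from 0) in the 6 WT and 6 KO hearts, with points for hearts and bars for mean ± SD. Rpl3l sits at 213 to 264 CPM in WT and 24.5 to 29.4 CPM in KO, Rpl3 moves the other way, and the remaining pairs differ far less between the genotypes.

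Rpl3l, the muscle form of RPL3, showed the smallest p-value of all genes tested and fell in KO hearts. It stood at 213 to 264 CPM in WT (median 257) and at 24.5 to 29.4 CPM in KO (median 25.5). Every KO heart lay far below every WT heart, and the 6 KO hearts were close to each other. The mean was 245 ± 23.8 CPM in WT and 26.4 ± 1.98 CPM in KO (SD, n = 6 each), a 9.29-fold reduction (log2 fold change -3.22, SE 0.073, edgeR adjusted p = 1.64e-14). By p-value Rpl3l ranked 1 of the 17155 rows tested, and by absolute log2 fold change it ranked 170.

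Rpl3, the widely expressed form, rose in the same hearts. It stood at 99.96 to 111 CPM in WT (median 104) and at 227 to 251 CPM in KO (median 234), without overlap. The mean was 105 ± 4.25 CPM in WT and 236 ± 8.48 CPM in KO (SD, n = 6 each), a 2.25-fold increase (log2 fold change 1.17, SE 0.044, edgeR adjusted p = 7.43e-12). Rpl3 ranked 11 of the 17155 rows by p-value. Of the 4 rows whose KEGG entry names Rpl3, this row included, 4 rose, with log2 fold changes of 1.11 to 1.34. The others were a row on chromosome 3 and 2 rows outside the annotation, which share a position on opposite strands. In 1 of these 2 the groups overlapped, at 0.353 to 0.758 CPM in WT and 0.708 to 2.01 CPM in KO (scaled by total counts). Reads of near-identical copies may be divided among such rows. Syngr1, which overlaps Rpl3, rose by less (log2 fold change 0.34, edgeR adjusted p = 2.41e-05), from 59.2 to 75.01 CPM.

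Within each library, where no scaling between libraries is needed, there were 2.06 to 2.64 counts of Rpl3l for each count of Rpl3 in WT, with a median of 2.35, and 0.100 to 0.128 in KO, with a median of 0.110. In every WT heart Rpl3l had the larger count of the pair, and in every KO heart Rpl3 had. The log2 ratio changed by -4.38 (SE 0.084), a 20.9-fold reduction, with a two-sided exact permutation p = 0.00216, the smallest that 6 hearts against 6 can give (0.00433 after Benjamini-Hochberg adjustment over the 4 ratios). Levels of different genes were compared per length, as FPKM (fragments normalised for transcript length and library depth). On that scale Rpl3l made up 67.9% to 73.1% of the sum of the pair in WT and 9.33% to 11.6% in KO. The sum itself was 305 to 340 FPKM in WT (328 ± 16.9, SD, n = 6) and 233 to 248 FPKM in KO (242 ± 5.61), so that the WT and KO hearts did not overlap and the rise of Rpl3 in FPKM was smaller than the fall of Rpl3l.

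**Figure D2:**
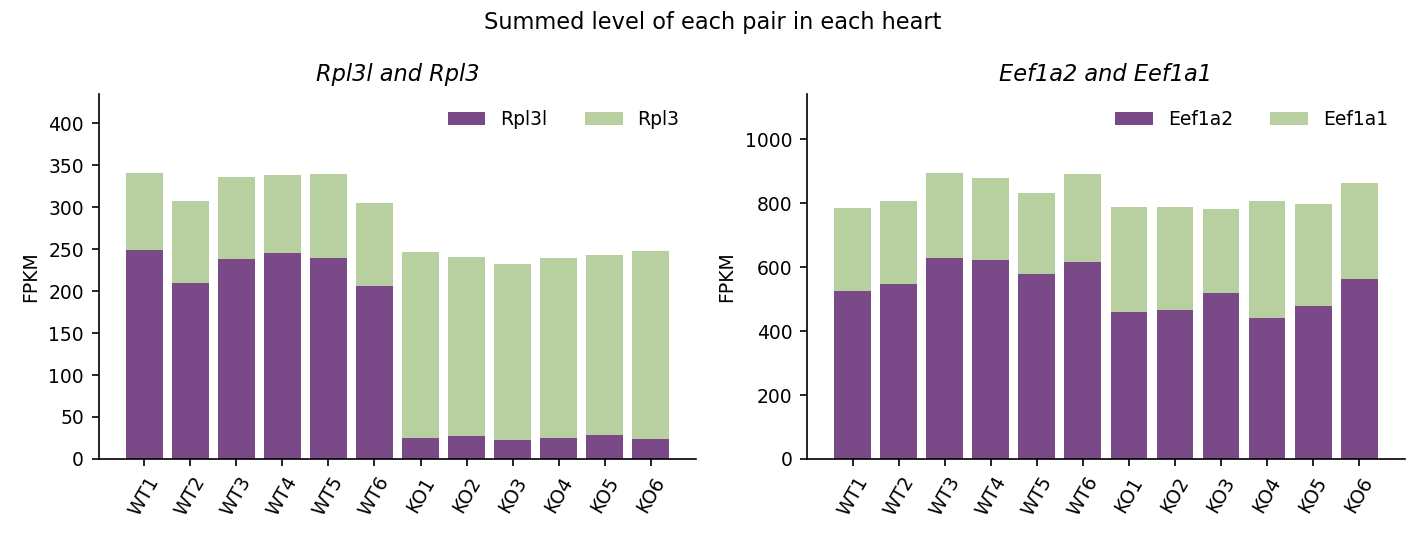
FPKM of Rpl3l with Rpl3 (left) and of Eef1a2 with Eef1a1 (right), stacked, in each of the 12 hearts (vertical axes from 0). The Rpl3l part falls from at least 67.9% of the bar in WT to at most 11.6% in KO and the whole bar shortens, while the Eef1a2 part falls from 66.9% to 70.8% in WT to 54.7% to 66.6% in KO.

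The fall of Rpl3l was larger than that of the summed cardiomyocyte markers. As CPM of the counts on those 9 markers alone, Rpl3l ranged from 3566 to 4554 CPM in WT (median 4321) and from 415 to 653 CPM in KO (median 590), a 7.33-fold difference between the medians, and the groups did not overlap. KO replicate 3 had the highest cardiomyocyte sum of the KO hearts, 56942.5 CPM, within the WT range. Its Rpl3l to Rpl3 count ratio, 0.103, was lower than in every other KO heart but replicate 6. KO replicates 3 and 6 had the lowest fibroblast sums of the KO hearts, 2364 and 2297 CPM, against 3498 to 4479 CPM in the other KO hearts and 1489 to 1802 CPM in WT. The Rpl3l to Rpl3 ratio of KO replicate 6 was 0.100. Of the 9 cardiomyocyte markers 5 fell and 1 rose, from Atp2a2 (log2 fold change -0.99) to Mybpc3 (1.05). The values per marker count therefore depend on which markers are summed. The part of the marker changes in the Rpl3l and Rpl3 differences was not tested beyond these values.

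Most other genes of the cytosolic ribosome changed little or fell slightly. Of 68 other cytosolic ribosomal protein genes tested, 27 fell and 0 rose in edgeR, against 25.5% and 25.6% of all rows. Of the 68, 0 rose also at an unadjusted p under 0.05, and 0 in DESeq2 and limma-voom. The median log2 fold change of the 68 was -0.13, against 0.00 over all rows. With a trend on gene length removed, 17 fell and 4 rose (median log2 fold change -0.06), and without WT replicate 4, 26 fell and 1 rose. Leaving out each library, the number of the 68 called in either direction ran from 21 to 37. The lowest p-values among those that fell were those of the small-subunit genes Rps2 (log2 fold change -0.66) and Rps9 (-0.32) and the large-subunit gene Rpl9 (-0.29). The log2 fold change of Rpl3 lay above those of all 68 and that of Rpl3l below those of all 68. Next below Rpl3 was Rps27a, which encodes a ubiquitin-ribosomal protein fusion and did not pass the test (log2 fold change 0.79, SE 0.44, edgeR adjusted p = 0.157). It was singled out after its values were seen. Set against the median FPKM of the 68 in the same heart, Rpl3 stood at 0.270 to 0.332 in WT and 0.678 to 0.808 in KO. Rpl3 and Rpl3l together stood at 0.906 to 1.03 in WT and 0.753 to 0.893 in KO. Neither comparison overlapped between the groups.

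**Figure D3:**
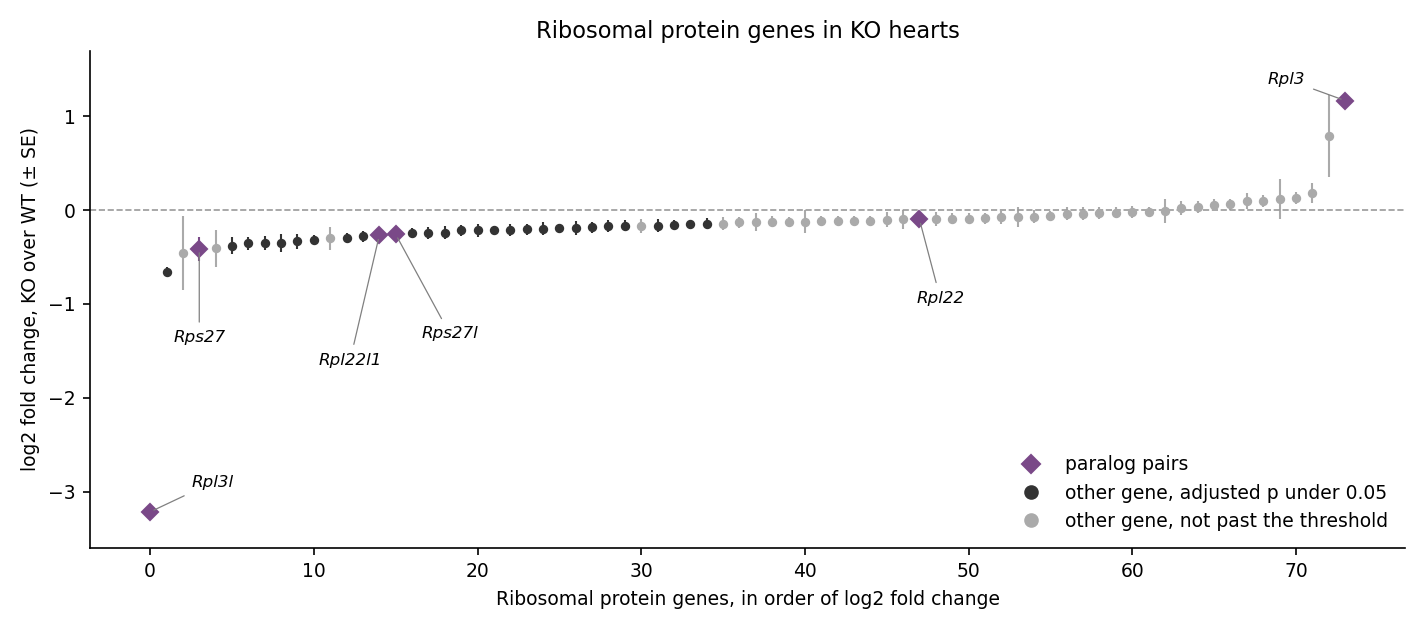
The log2 fold change of KO over WT (vertical axis, ± SE from edgeR) for 68 other cytosolic ribosomal protein genes and for the 6 ribosomal paralogs, placed in order of their value. Diamonds are the paralogs, dark points the 27 other genes past an adjusted p of 0.05 and grey points the rest, with Rpl3l (-3.22) and Rpl3 (1.17) at the ends and Rps27 (-0.41), Rpl22l1 (-0.27), Rps27l (-0.26) and Rpl22 (-0.10) among the others.

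The annotated genes whose log2 CPM over the 12 libraries ran closest to that of Rpl3l were Sdhaf4 itself (root mean square difference 0.22 on the log2 scale), As3mt, an arsenite methyltransferase gene (0.24), and Tmod4, which encodes a tropomodulin of striated muscle (0.30). As3mt fell from 59.5 to 7.87 CPM (log2 fold change -2.92, edgeR adjusted p = 6.49e-12). Tmod4 fell from 19.0 to 1.71 CPM (log2 fold change -3.47, edgeR adjusted p = 6.11e-11).

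For Rpl22 and Rpl22l1 the differences were small. Rpl22 stood at 183 to 218 CPM in WT (median 195) and at 178 to 196 CPM in KO (median 183). The groups overlapped, and the difference did not pass the test (log2 fold change -0.10, SE 0.050, edgeR adjusted p = 0.11). Rpl22l1 stood at 38.3 to 54.6 CPM in WT (median 47.1) and at 33.7 to 43.3 CPM in KO (median 40.8). Rpl22l1 was lower in KO (log2 fold change -0.27, SE 0.084, edgeR adjusted p = 0.0129), and the groups overlapped through WT replicate 6 alone. There were 0.210 to 0.251 counts of Rpl22l1 per count of Rpl22 in WT and 0.182 to 0.241 in KO. The difference in log2 ratio was -0.17 (SE 0.076, two-sided exact permutation p = 0.0519, adjusted 0.0693) and did not pass the threshold. It passed without WT replicate 6 (-0.21, exact permutation p = 0.00866) and without KO replicate 2 (-0.21, exact permutation p = 0.026), before adjustment. Per length, Rpl22l1 made up 25.05% ± 1.25 of the sum of the pair in WT and 22.9% ± 1.90 in KO (SD, n = 6 each).

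The genes closest to Rpl22l1 over the 12 libraries were Mrpl33, of the mitochondrial ribosome (root mean square difference 0.079 in log2 CPM), Nfu1, an iron-sulphur cluster factor (0.087), and Ndufa1, a subunit of respiratory complex I (0.087). Each of these 3 was lower in KO, with log2 fold changes of -0.26, -0.29 and -0.30.

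Both genes of the Rps27 pair were lower in KO, to a similar degree. Rps27 stood at 240 to 428 CPM in WT (median 323) and at 208 to 284 CPM in KO (median 260). The WT hearts were widely spread, with replicate 6 inside the KO range and replicate 2 just above it. The log2 fold change of Rps27 was -0.41 (SE 0.13, edgeR adjusted p = 0.0166). Rps27l stood at 71.0 to 90.1 CPM in WT (median 83.1) and at 62.5 to 74.7 CPM in KO (median 67.5), and overlap came again from WT replicate 6. The log2 fold change of Rps27l was -0.26 (SE 0.060, edgeR adjusted p = 0.00172). There were 0.211 to 0.296 counts of Rps27l per count of Rps27 in WT and 0.244 to 0.323 in KO. The log2 ratio differed by 0.14 (SE 0.098, two-sided exact permutation p = 0.186, adjusted 0.186), less than the spread between WT hearts (SD 0.19).

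WT replicate 6 had the lowest WT level of Rpl22, Rpl22l1, Rps27, Rps27l and Rpl3l, and WT replicate 5 had the highest of Rpl22, Rpl22l1, Rps27, Rps27l and Rpl3. The same 2 hearts stood at the ends of the WT range for the 68 other ribosomal protein genes summed, at 16865 CPM in replicate 6 and 20341 CPM in replicate 5 (scaled by total counts). The part of this spread in the differences of these genes was not tested. Among the genes closest to Rps27 over the 12 libraries were the small-subunit gene Rps21 (root mean square difference 0.091 in log2 CPM) and the mitochondrial import gene Tomm7 (0.12), lower in KO with log2 fold changes of -0.35 and -0.29. Of 16 other p53 target genes tested, 10 rose and 3 fell (against 25.6% and 25.5% of all rows), with a median log2 fold change of 0.37. Among them Phlda3 (1.54), Perp (0.70) and Gdf15 (2.22) rose, and Btg2 (-0.67), Eda2r (-0.58) and Ccng1 (-0.24) fell.

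**Figure D4:**
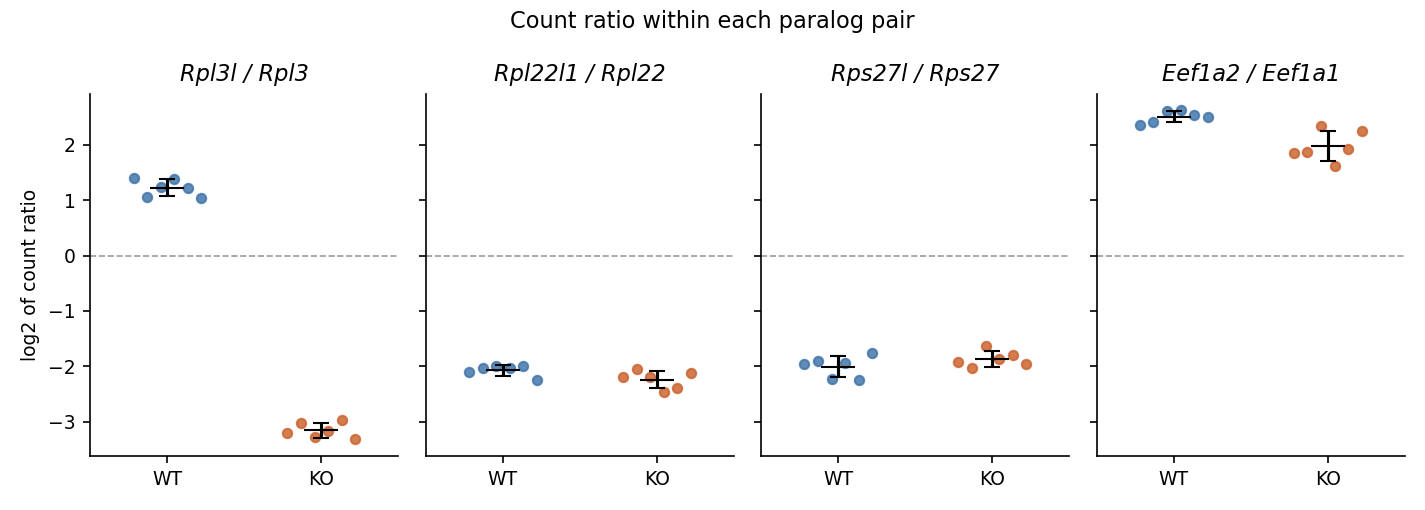
Log2 of the count ratio of the paralogs in each library (vertical axis, common to the 4 panels), in 6 WT and 6 KO hearts, with bars for mean ± SD and a dashed line where both genes had equal counts. The Rpl3l to Rpl3 ratio crosses that line, from 1.22 in WT to -3.16 in KO, the Eef1a2 to Eef1a1 ratio drops from 2.51 to 1.98 without overlap, and the remaining 2 ratios overlap between the genotypes.

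Eef1a2, the muscle and neuron form of eEF1A, was lower in KO and Eef1a1 higher. Eef1a2 stood at 1101 to 1331 CPM in WT (median 1241) and at 894 to 1206 CPM in KO (median 976). KO replicates 3 and 6 reached into the WT range. The log2 fold change of Eef1a2 was -0.26 (SE 0.077, edgeR adjusted p = 0.00872). Eef1a1 stood at 210 to 220 CPM in WT (median 213) and at 221 to 290 CPM in KO (median 260), a log2 fold change of 0.27 (SE 0.055, edgeR adjusted p = 0.00063). The WT hearts were tightly grouped, and the lowest KO heart, replicate 3, lay just above them, while with scaling by total counts alone the groups overlapped (206 to 226 CPM in WT and 213 to 298 CPM in KO). Of the 8 rows whose KEGG entry names Eef1a1, 8 rose, with log2 fold changes of 0.22 to 0.35, although reads of such near-identical copies may be divided among the rows.

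There were 5.16 to 6.20 counts of Eef1a2 per count of Eef1a1 in WT, with a median of 5.76, and 3.09 to 5.10 in KO, with a median of 3.74. With this Eef1a1 row no KO heart reached the lowest WT heart, while with the other choices of Eef1a1 rows given at the end the groups overlapped. The log2 ratio changed by -0.53 (SE 0.12), a 1.44-fold reduction, with a two-sided exact permutation p = 0.00216 (adjusted 0.00433). Per length, Eef1a2 made up 69.1% ± 1.55 of the sum of the pair in WT and 60.7% ± 4.46 in KO (SD, n = 6 each), and the sum was 849 ± 46.3 FPKM and 805 ± 30.7 FPKM. The Eef1a1 part of these shares rests on a row that may hold only part of the gene's reads.

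The KO hearts with the ratios nearest to WT, replicate 3 at 5.10 and replicate 6 at 4.79, were also those with the lowest fibroblast marker sums, and replicate 3 had the highest cardiomyocyte marker sum. As CPM of the counts on the cardiomyocyte markers alone, Eef1a2 ranged from 18705 to 22159 CPM in WT (median 21296) and from 19049 to 25055 CPM in KO (median 21298), and the groups overlapped. Of these 9 markers 5 fell and 1 rose, from Atp2a2 (log2 fold change -0.99) to Mybpc3 (1.05), so these values depend on which markers are summed. The part of these marker changes in the Eef1a2 and Eef1a1 differences was not tested beyond these values.

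**Figure D5:**
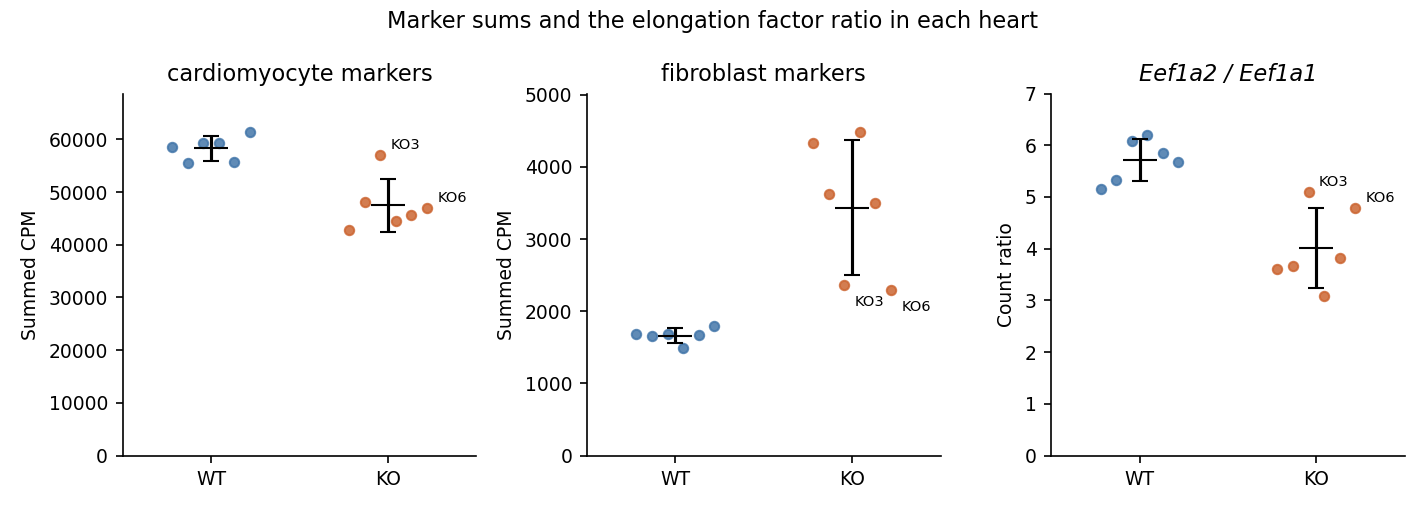
Summed CPM of 9 cardiomyocyte markers (left) and 8 fibroblast markers (middle), and the Eef1a2 to Eef1a1 count ratio (right), in 6 WT and 6 KO hearts, with bars for mean ± SD and vertical axes from 0. KO replicates 3 and 6, marked KO3 and KO6, have the lowest fibroblast sums of the KO hearts, 2364 and 2297 CPM, and the highest ratios, 5.10 and 4.79.

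Among 8 other genes of translation elongation, 2 rose and 3 fell (against 25.6% and 25.5% of all rows), with a median log2 fold change of -0.04. Eef2, which moves the ribosome along the mRNA, rose (log2 fold change 0.28), and so did Eif5a2 (0.80), a paralog of Eif5a, which itself fell (-0.20). Eef2k, the kinase that inhibits eEF2, fell (-0.49), as did Eef1d (-0.41), part of the complex that recharges eEF1A with GTP. Of the 2 eEF1A methyltransferase genes tested, Eef1akmt1 fell (-0.47). Eif5a and Eif5a2 form a further pair, in which the widely expressed gene fell and the paralog rose, from 4.37 to 7.64 CPM. Of 2 other ribosomal protein paralogs tested, Rpl7l1 rose (0.34) and Rpl36al did not pass the test (-0.14). The genes closest to Eef1a1 over the 12 libraries were Phc2 (root mean square difference 0.043 in log2 CPM), Arfip2 (0.052) and Ppp1r9b (0.054), with log2 fold changes of 0.29, 0.27 and 0.33.

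In other steps of translation, 4 of 35 initiation factor genes rose and 16 fell (against 25.6% and 25.5% of all rows), with a median log2 fold change of -0.07. Eif4a1 (0.26), Eif5 (0.50) and Eif4g3 (0.30) were among the former, and Eif4a2 (-0.80), Eif3j1 (-0.71) and Eif3g (-0.59) among the latter. Eif4a1 and Eif4a2 encode paralogous RNA helicases, of which the first rose and the second fell. Of 39 ribosome biogenesis genes, 5 rose and 20 fell, against the same shares of all rows, with a median of -0.18. Polr1e, a subunit of RNA polymerase I (0.93), and the ribosome assembly genes Bop1 (0.56) and Rrp12 (0.62) rose, while Rrp9 (-0.82), Noc2l (-0.39) and Nop10 (-0.50) fell.

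Per length, the paralogs in WT ran from Rps27 (706 FPKM) and Eef1a2 (587), whose ranges overlapped, through Eef1a1 (262) to Rpl3l (231) and Rpl22 (217), which overlapped each other, and then Rps27l (181), Rpl3 (96.4) and Rpl22l1 (72.9), which did not overlap their neighbours. In KO, Rps27 (535 FPKM) and Eef1a2 (489) overlapped at the top, and Eef1a1 (316) followed. Rpl3 (217) came next in KO and overlapped Rpl22 (204), ahead of Rps27l (152) and Rpl22l1 (60.6), and Rpl3l (24.98) was last. Among the 68 other ribosomal protein genes, 20 had a lower mean FPKM than Rpl3l in WT and 1 in KO, and 5 had a lower mean FPKM than Rpl3 in WT and 18 in KO.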

How the data were processed

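Poly-A RNA of ventricular wall from 6 WT and 6 KO mice had been sequenced after TruSeq preparation. Per the labels' processing notes the authors used HISAT2 2.0.5 and the mm10 build, although the row identifiers are those of the C57BL/6NJ assembly. The authors counted reads per gene with HTSeq 0.9.1 and deposited raw counts and FPKM values for every library. The lengths implied by FPKM are at or below those of the length column for the paralogs. The table's group means and the authors' own fold changes and p-values were not used.

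The raw counts were tested with edgeR 4.0.16 under R 4.3.3 (filterByExpr, TMM, robust quasi-likelihood test, Benjamini-Hochberg adjustment over 17155 rows). Count ratios within libraries were compared by two-sided exact permutation tests in SciPy 1.17.1, adjusted over 4 ratios. Coding sequences were aligned globally. The chi-square of any replicate pair was 6.99 or more per degree of freedom, and none was treated as a duplicate; the labels do not say more of their origin, and p-values measure the spread between these samples. On simulated counts for 17155 genes in the KO versus WT comparison, 39 of 50 genes changed by a log2 value of 0.5, 39 of 50 changed by -0.5, 49 of 50 changed by 1 and 50 of 50 changed by -3 were recovered, with 13 false calls. The changed genes were drawn from rows with higher counts. They were a far smaller part of all genes than the 51.1% called in the data, so recovery in the data may differ.

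Genes named were the 8 paralogs, Sdhaf4, up to 3 called genes with the smallest p per direction of each gene list, and, for the gene of each pair that changed more, the 3 annotated genes of at least 5 CPM with the closest profile (log2 CPM, prior count 2). A gene that this rule names is not reported here. The paralogs and the gene lists were chosen with earlier results of these data known. Alternatives were DESeq2 size factors, library size and upper quartile scaling, DESeq2 1.42.0, limma-voom (limma 3.58.1), other filters, removal of a length trend, a replicate block, FPKM ratios and leaving out each library.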

Additional observations from a re-analysis of the deposited data

Results flagged for a closer look

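In the groups of 6 hearts, 148 sets of values (the paralogs, their ratios, the named genes and the marker genes, by genotype) were examined for a heart far from the other 5, and 10 were found. Chance gives about 1 in 20, or 7.4. None of the 10 concerned the 8 paralogs or the 4 ratios. KO replicate 3 stood apart in 3 of them, with Eif4a2 at 394 CPM (320 to 346 in the other KO hearts), Atp2a2 at 7971 CPM (4525 to 5645) and Pdgfrb at 120 CPM (160 to 178). WT replicate 4 had the highest Rps2, 816 CPM (751 to 766 in the other WT hearts). WT replicate 1 had the highest Eef1akmt1, 21.5 CPM (16.7 to 17.7), and the highest Mylpf, a skeletal muscle marker, 2.88 CPM (0.769 to 1.42). WT replicate 6 had the lowest Tnni3, 3332 CPM (3773 to 4019). Among KO hearts, Eif3g stood at 58.6 CPM in replicate 6 (46.9 to 49.3 in the others), Sdhaf4 at 2.73 CPM in replicate 1 (2.25 to 2.41) and Tmod4 at 2.65 CPM in replicate 4 (1.19 to 1.69).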

How the results depend on the processing

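Rpl3l, Rpl3, Rpl22l1, Rps27l, Eef1a1 and Eef1a2 kept their direction and stayed past the threshold, and Rpl22 stayed short of it, under all 9 other scalings, tests, filters and designs and with each of the 12 libraries left out. Leaving out a library, the log2 fold change ran from -3.26 to -3.20 for Rpl3l, 1.15 to 1.18 for Rpl3, 0.23 to 0.30 for Eef1a1, -0.32 to -0.23 for Eef1a2 and -0.49 to -0.33 for Rps27, and the log2 ratio from -4.42 to -4.35 for Rpl3l/Rpl3, -0.60 to -0.46 for Eef1a2/Eef1a1 and -0.21 to -0.13 for Rpl22l1/Rpl22, the last passing the threshold in 2 of 12 cases. Same-numbered hearts did not deviate together (correlations from -0.16 to 0.024) and no label marks a pairing, although such correlations cannot exclude a weak shared effect. With a replicate block, 8233 rows were called in place of 8767. Rps27 was then at -0.39 and no longer past the threshold (edgeR adjusted p = 0.0674), and the other 7 kept their calls. Sign flips of the paired ratios gave their smallest p, 0.0312, for Rpl3l/Rpl3 and Eef1a2/Eef1a1. Further variants were chosen after seeing the data. Summing all rows annotated as the partner gave -4.38 for Rpl3l/Rpl3 (exact permutation p = 0.00216) and -0.52 for Eef1a2/Eef1a1 (exact permutation p = 0.00433). Putting the adjacent row in place of the Eef1a1 row gave -0.53 for Eef1a2/Eef1a1 (exact permutation p = 0.026). Both of these Eef1a2/Eef1a1 p-values exceed the smallest possible, which groups without overlap would give, so the groups overlapped in both variants. Using the length column moved the share of Rpl3l to 73.6% in WT and 11.8% in KO, of Rpl22l1 to 20.4% and 18.6%, and of Rps27l in KO to 24.3%. Without WT replicate 6, 2 other ribosomal protein paralogs and 2 eEF1A methyltransferases were called (range 1 to 2 over the libraries left out), and a filter at 1 CPM left 1 skeletal muscle marker called, fewer being tested. Values under 1 CPM rest on few counts.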
